A study of Mus musculus with 32 samples.

Results

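The miRNAs of extracellular vesicles (EVs) on the peritoneum of normal mice were set against those of the normal ovary, an organ that lies in the same cavity. EVs were taken up from the wet pelvic peritoneum with a sheet of cellulose nanofibers (a CNF sheet), and 3 small RNA libraries of these sheets were compared with 3 libraries of normal tissue. A miRNA was taken into the comparison when it held 10 RPM or more (its reads, scaled so that the miRNA reads of a library add up to 1000000) in at least 3 of these 6 libraries, which 390 of the 1513 mouse miRNAs in the table did. In the library where they took the smallest share, these 390 held 99.8% of the reads. The miRNAs nearest the limit had a third-highest value of 10.2 RPM on the inside (miR-21c, miR-32-3p and miR-376a-5p) and of 9.66 RPM on the outside (miR-1247-5p and miR-6412).

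All mice were females of BALB/cSlc-nu/nu, 8 weeks old when bought and older at sampling, an athymic strain that lacks mature T cells and keeps B cells, natural killer cells and myeloid cells. The normal mice were controls given PBS, and the tumor-bearing mice used below for comparison received ID8-T6 cells, a subclone of the mouse ovarian cancer line ID8 that spreads well in the abdomen, into the peritoneal cavity. Samples of both were taken on day 14, when no ascites was apparent. The sample labels call the tissue of control mice only normal, and the ovary is named in the text of the study. RNA of the sheets and of the tissues was prepared with different kits, so that kit and sample type cannot be told apart. The study describes its small RNA sequencing replicates as taken from the same spot and does not say whether those of a group came from different mice. The p-values then reflect no more than the scatter among these libraries, which may be technical.

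EVs are membrane-bound particles that cells shed, and they carry miRNAs and other RNAs of the cells they come from. A miRNA guides Argonaute to messenger RNAs mainly through its seed, bases 2 to 8, so miRNAs with the same seed share many targets. Many miRNAs are restricted to a cell type: miR-223 and miR-142 to blood-forming and immune cells, miR-126 to endothelium, miR-143 and miR-145 to smooth muscle and stroma, the miR-200 family to epithelium, and miR-202 to the gonads. In whole tissue, fewer cells of a type and less of a miRNA per cell cannot be told apart.

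The mature sequences of miRNAs on which the results turn are given first, 5′ to 3′, from RefSeq (build GRCm38.p6), with the seed in capitals. The sequences of 340 of the 390 miRNAs were used, and some others with an entry there were left out.
miR-223-3p: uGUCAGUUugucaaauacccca
miR-142a-5p: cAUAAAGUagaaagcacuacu
miR-142a-3p: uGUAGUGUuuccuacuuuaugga
miR-206-3p: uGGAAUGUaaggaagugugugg
miR-21a-5p: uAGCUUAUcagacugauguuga
miR-126a-3p: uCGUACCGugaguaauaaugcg
miR-202-5p: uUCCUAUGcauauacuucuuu
miR-351-5p: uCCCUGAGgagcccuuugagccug
miR-196b-5p: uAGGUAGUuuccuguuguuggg
The first 5 were higher in EVs and the last 4 higher in ovary. Mature miR-223-3p lies at chrX:96242884-96242905 on the plus strand, within an exon of the noncoding gene F630028O10Rik, and miR-142a-5p at chr11:87756867-87756887 in an intron of the noncoding Mir142hg. miR-126a-3p lies at chr2:26591402-26591423 within Egfl7, a gene of endothelial cells, miR-196b-5p at chr6:52230129-52230150 on the minus strand within an exon of the Hoxa9 gene model, and miR-202-5p at chr7:139957732-139957752 on the minus strand in the noncoding Gm2044 (gene models of GENCODE M21).

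A second set shows that miRNAs with 1 seed fell on both sides of the comparison. The following 6 miRNAs share the seed AGCAGCA and differ from each other in their first base or after base 8.
miR-16-5p: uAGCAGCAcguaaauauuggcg
miR-15a-5p: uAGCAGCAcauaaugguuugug
miR-15b-5p: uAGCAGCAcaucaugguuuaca
miR-195a-5p: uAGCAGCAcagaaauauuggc
miR-322-5p: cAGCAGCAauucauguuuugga
miR-497a-5p: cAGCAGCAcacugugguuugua
miR-15a and 1 copy of miR-16 lie in an intron of the noncoding Dleu2 on chromosome 14, and miR-15b and the other copy of miR-16 in an intron of Smc4, a condensin gene, on chromosome 3. miR-195a and miR-497a neighbour each other on chromosome 11, and miR-322 lies on chromosome X. Their levels are described further down.

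The 3 EV libraries held 701652, 718768 and 1075029 miRNA reads and the 3 ovary libraries 1035355 to 1263506. Within EVs the rank correlation of the 390 miRNAs between libraries was 0.910 to 0.975 and within ovary 0.972 to 0.988, against 0.620 to 0.751 between an EV and an ovary library, given as a description. EV library 3 stood apart from the other EV libraries. Its 7 red blood cell miRNAs (miR-451a, miR-144, miR-486a and miR-486b) summed to 134765 RPM, against 3459 and 6049 RPM in EV libraries 1 and 2 and 1472 to 4643 RPM in ovary. It also held 3 miRNAs typical of the pancreas, which were noticed after their values were seen: miR-217-5p stood there at 876 RPM against 4.28 and 19.5 RPM in the other EV libraries. Values without this library are given beside the results it changes.

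Of the 390 miRNAs, 140 were higher in EVs and 90 higher in ovary (limma on log2(RPM + 10), adjusted p under 0.05 and a log2 difference over 1 in size). These are 35.9% and 23.1% of all tested, and 279 had an unadjusted p under 0.05. All 3 EV libraries lay above all 3 ovary libraries for 175 miRNAs (44.9%), and all ovary libraries above all EV libraries for 112 (28.7%). The EV calls took 36.8% of the reads of EVs and 7.54% of those of ovary, the ovary calls 44.1% of the reads of ovary and 7.69% of those of EVs. The split depends on how the libraries are scaled. RPM gives each library the same total, and the median log2 difference over all 390 was 0.50 toward EVs. After median-of-ratios scaling, which sets a typical miRNA equal, that median was 0.04, and 90 miRNAs (23.1%) were higher in EVs and 110 (28.2%) higher in ovary. The share of calls toward EVs was then 45.0% instead of 60.9%. Under RPM, median-of-ratios and TMM scaling, edgeR and DESeq2 alike, 81 miRNAs were called higher in EVs and 90 higher in ovary, and no called miRNA turned direction after median-of-ratios scaling. Differences below are EVs minus ovary on the log2(RPM + 10) scale unless said otherwise, with their standard error (SE), and are to be read against the median of 0.50.

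**Figure D1:**
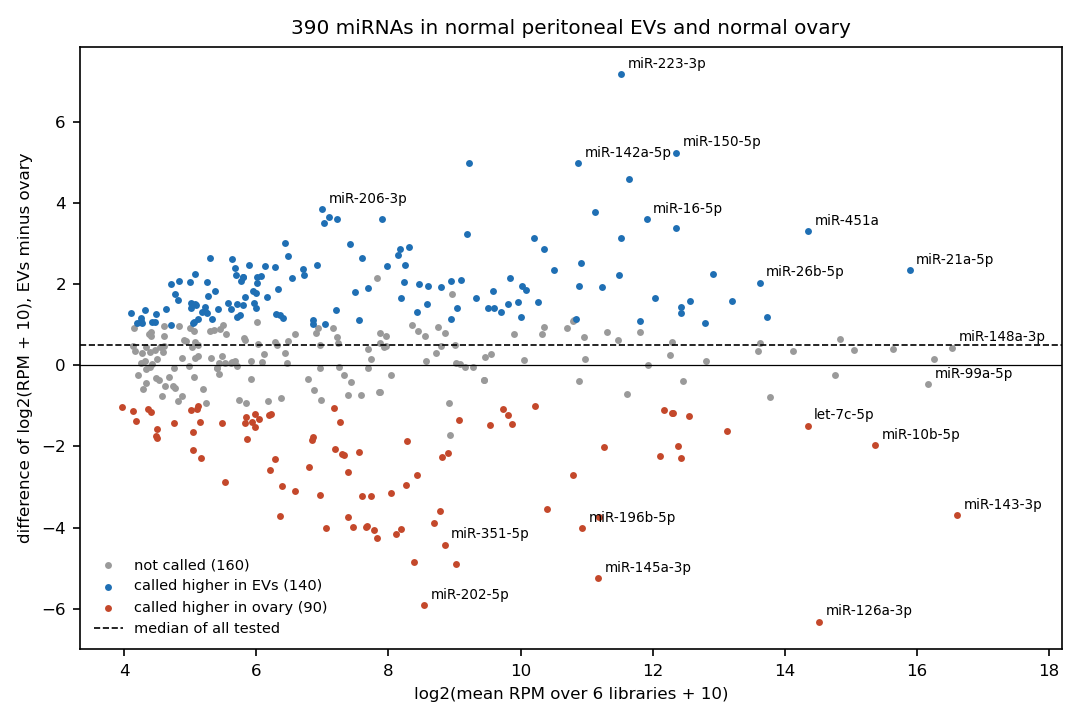
Each point is 1 of the 390 miRNAs: the x axis is log2 of its mean RPM over the 6 libraries plus 10, the y axis the difference of log2(RPM + 10), EVs minus ovary, and colours mark the 140 miRNAs called higher in EVs, the 90 called higher in ovary and the rest. The cloud centres on the dashed median of 0.50, and miR-223-3p and miR-126a-3p lie at its ends, at 7.17 and -6.32.

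The most abundant miRNAs were largely shared. Of the 10 with the highest mean in EVs, 6 were also among the 10 highest in ovary. miR-148a-3p, which targets DNA methyltransferase mRNAs among others, stood at 86476, 92131 and 146553 RPM in EVs and at 93452, 100984 and 50363 RPM in ovary. The groups overlapped, and the difference of 0.43 (SE 0.32, limma adjusted p = 0.256) was not past the threshold. miR-26a-5p (0.15, SE 0.21), miR-99a-5p (-0.47, SE 0.28), miR-10a-5p (-0.23, SE 0.17), let-7f-5p (0.40, SE 0.15) and let-7i-5p (0.37, SE 0.32) were not called either, and after median-of-ratios scaling all of them lay below 0, with miR-99a-5p then called higher in ovary. The others of the 10 in EVs were miR-21a-5p, miR-451a, miR-26b-5p and let-7g-5p, and let-7g-5p was 0.64 higher in EVs (SE 0.16), 0.04 after median-of-ratios scaling and -0.10 after TMM scaling, and not called.

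miR-21a-5p, raised in many inflamed and growing tissues, was the second most abundant miRNA of normal EVs. It stood at 111893, 147402 and 49735 RPM in EVs and at 17796, 15969 and 21816 RPM in ovary. Every EV library lay above every ovary library, and the difference was 2.35 (SE 0.38, limma adjusted p = 0.000942), with the same call in all 17 alternatives. Its other arm miR-21a-3p was called as well. miR-26b-5p, of the miR-26 family, stood at 23520, 21558 and 15888 RPM in EVs and 5352, 5141 and 4226 RPM in ovary (2.04, SE 0.21, limma adjusted p = 0.00016), while the groups overlapped for its more abundant relative miR-26a-5p, as given above.

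In ovary the most abundant miRNA was miR-143-3p, a miRNA of smooth muscle and stroma. It stood at 175230, 150020 and 224870 RPM in ovary and at 29803, 5514 and 16690 RPM in EVs. The EV libraries lay below all ovary libraries but differed among themselves more than the ovary libraries did (-3.69, SE 0.55, limma adjusted p = 0.000635). miR-10b-5p, which lies in the HoxD cluster, stood at 68159, 70419 and 61818 RPM in ovary and 18075, 11336 and 24329 RPM in EVs (-1.96, SE 0.28, limma adjusted p = 0.000532). let-7c-5p, of the let-7 family, was 2.79-fold higher in ovary by mean RPM (-1.48, SE 0.17, limma adjusted p = 0.000197). All of these kept their call in the 17 alternatives.

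The largest differences toward EVs were those of miRNAs of immune cells. miR-223-3p, a miRNA of neutrophils and other myeloid cells, stood at 5926, 9632 and 1980 RPM in EVs against 25.1, 17.7 and 29.3 RPM in ovary. The lowest EV library was far above the highest ovary library, and the mean was 243-fold higher (7.17, SE 0.53, limma adjusted p = 2.87e-05). Its other arm miR-223-5p was at 1531, 1572 and 369 RPM against 17.4 to 25.2 RPM (4.98, SE 0.54). miR-150-5p, a miRNA of mature B and other lymphocytes, stood at 11412, 14492 and 4779 RPM in EVs and at 229.9, 222.3 and 254.1 RPM in ovary (5.24, SE 0.39, limma adjusted p = 2.91e-05). EV library 3 was the lowest of the EV libraries for each of these.

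miR-142a, which is made in all blood-forming lineages, showed the same for both arms. miR-142a-3p stood at 7092, 8185 and 3033 RPM in EVs and 184, 163 and 370 RPM in ovary (4.59, SE 0.45, limma adjusted p = 0.000117). miR-142a-5p was 36.2-fold higher by mean RPM (4.98, SE 0.32). Of the 12 leukocyte miRNAs in the table (both arms of miR-142a, miR-223, miR-150, miR-155, miR-146a and miR-342), 10 were tested and 9 were higher in EVs, with 8 after median-of-ratios scaling and 9 without EV library 3. Their median difference was 3.52, against 0.50 over all miRNAs. The exception was miR-342-5p, and miR-146a-3p and miR-155-3p were too low to test. miR-150-3p was under 10 RPM in every ovary library and entered through EVs alone. The summed level of the 12 was 42742, 50570 and 18301 RPM in EVs and 3493 to 3903 RPM in ovary. miR-146a-5p, which damps NF-kB signalling, was 1.58 higher (SE 0.31, limma adjusted p = 0.00233), with 0.99 after median-of-ratios scaling and no call there.

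The miRNAs listed for wounding and inflammation (miR-21a, miR-31, miR-146a, miR-146b, miR-155, miR-132 and miR-212) did not go one way. Of 9 tested, 5 were higher in EVs, 3 higher in ovary and 1, miR-132-3p, was not called, with a median of 1.39. Over all 390, 35.9% were higher in EVs and 23.1% higher in ovary. Of the 3 in ovary, miR-212-5p was under 10 RPM in every EV library and entered through ovary alone. On this list, miR-146a and miR-155 are also on the leukocyte list. miR-146b-5p stood at 14932, 17917 and 5886 RPM in EVs against 2227 to 2768 RPM in ovary (2.26, SE 0.40, limma adjusted p = 0.00144). miR-31-5p, an injury-induced miRNA of epithelia in other settings, went the other way with 549.6, 499.7 and 211 RPM in ovary against 5.70, 4.17 and 31.6 RPM in EVs (-4.24, SE 0.52, limma adjusted p = 0.000284).

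**Figure D2:**
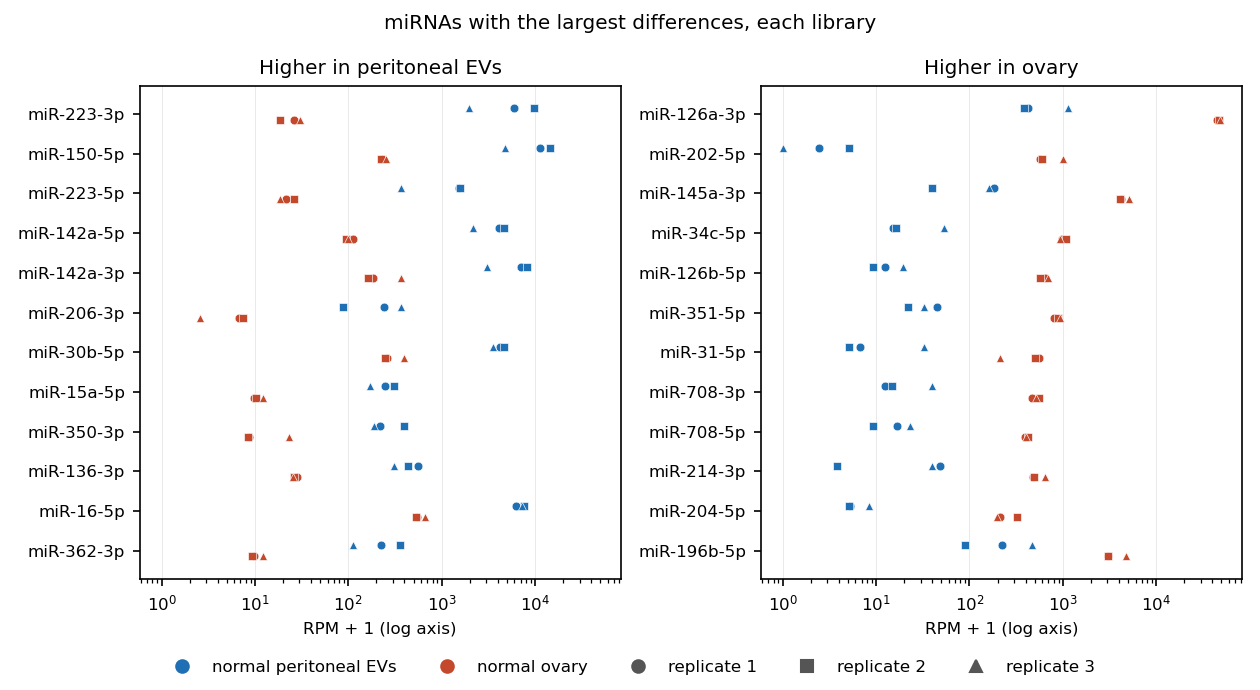
Each row is 1 of the 12 called miRNAs with the largest difference in each direction, the x axis RPM + 1 on a log axis, and each point 1 library, coloured by EVs or ovary and shaped by replicate number. Only calls whose EV and ovary libraries did not overlap were eligible, so the gap in each row was set by this choice. For miR-223-3p and miR-150-5p the lowest EV point is that of library 3.

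Red blood cell miRNAs are the other blood group in these samples, and their difference was set by EV library 3. miR-451a, made in maturing red cells without Dicer, stood at 2903, 5137 and 113085 RPM in EVs and 791, 739.8 and 2901 RPM in ovary. The groups did not overlap, but EV library 1 and ovary library 3 were almost level. The difference was 3.31 (SE 1.27, limma adjusted p = 0.0475) and fell to 1.68 without EV library 3 (limma adjusted p = 0.0304), and the call was lost without any 1 of the ovary libraries (adjusted p 0.0545 to 0.117) and after median-of-ratios scaling (adjusted p = 0.126). The other 6 of the 7 red cell miRNAs were not called, although with libraries paired by replicate number miR-144-5p was (2.15, limma adjusted p = 0.0291). The median of the 7 was 1.12 with EV library 3 and -0.27 without it. Recomputing RPM without these 7 gave 144 miRNAs higher in EVs and 87 higher in ovary. Among EVs the leukocyte sum was highest in libraries 1 and 2, where the red cell sum was lowest. What part blood on the sheets had in the leukocyte result was not tested.

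Muscle miRNAs (13 in the table, 4 tested) were higher in EVs for 3 of 4, against 35.9% of all 390, with a median of 1.77. Of the 3, miR-206-3p and miR-133b-3p were under 10 RPM in every ovary library. They entered the comparison through EVs alone, so that count and median are in part set by the filter. miR-206-3p, a miRNA of skeletal muscle, stood at 238, 87.7 and 368 RPM in EVs and 5.80, 6.54 and 1.58 RPM in ovary (3.85, SE 0.48, limma adjusted p = 0.000309). miR-1a-3p, of heart and skeletal muscle, was at 3247 to 6896 RPM in EVs and 3449 to 5635 RPM in ovary, where the groups overlapped (0.25, SE 0.33, and -0.34 after median-of-ratios scaling). miR-133a-3p was 1.93 higher (SE 0.55, limma adjusted p = 0.0145), a call that was lost after median-of-ratios scaling (adjusted p = 0.0725) and without EV library 1, ovary library 1 or ovary library 2 (adjusted p 0.0504 to 0.0546). The gut epithelial miR-192-5p and miR-194-5p were higher in EVs by 2.53 (SE 0.36) and 3.14 (SE 0.39), with miR-194-5p at 2466, 2877 and 1051 RPM in EVs and 249, 226 and 170 RPM in ovary. Every EV library lay above every ovary library for both, as was so for 44.9% of all 390.

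A hepatocyte miRNA was uneven between libraries of both groups. miR-122-5p, which makes up most of the miRNA of liver cells, stood at 1.43, 20.9 and 191 RPM in EVs and 8.69, 48.6 and 6.33 RPM in ovary, so that the groups overlapped (0.66, SE 0.98). Without EV library 3 its difference was -0.48. miR-802-5p was at 149 RPM in EV library 3, at 5.57 and 0 RPM in the other EV libraries and had 0 reads in ovary. The 3 neuronal miRNAs tested, of 12 in the table, were not called and had a median of 0.19, with all 3 below 0 after median-of-ratios scaling.

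The largest difference toward ovary was that of the endothelium. miR-126a-3p, which keeps vessel walls responsive to VEGF, stood at 44785, 46525 and 48350 RPM in ovary and at 428, 387 and 1132 RPM in EVs. The ovary libraries lay within a narrow range and 71.8-fold above the EV mean (-6.32, SE 0.39, limma adjusted p = 2.09e-05). All 4 endothelial miRNAs tested, the arms of miR-126a and miR-126b, were higher in ovary, with a median of -4.42, also after median-of-ratios scaling and without EV library 3. In RefSeq miR-126b-5p lies at chr2:26591399-26591420 on the minus strand, opposite miR-126a-3p on the plus strand, so that the 4 rest on 1 locus. In ovary miR-126a-5p stood at 380.5, 373.6 and 367.2 RPM and miR-126b-3p at 373.8, 370.8 and 364.1 RPM. How reads that match more than 1 miRNA were assigned is not stated, so the split within such pairs is uncertain.

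miRNAs of the gonad were found in all 3 ovary libraries. miR-202-5p, a miRNA of the gonads, stood at 568, 599 and 1008 RPM in ovary and had 4 reads in all EV libraries together (1.43, 4.17 and 0 RPM; -5.92, SE 0.32, limma adjusted p = 1.92e-05). Its other arm miR-202-3p had 84 reads in ovary and 0 in EVs, which makes it at least 20.3-fold higher in ovary when EVs are put at 3 reads over the group. miR-135a-2-3p and miR-383-5p, of the same list, also had 0 reads in EVs and were at least 20.8-fold and 13.5-fold higher. Of 10 tested miRNAs of ovary and granulosa cells, 8 were higher in ovary and none in EVs, with a median of -1.58. Of the 8, miR-202-5p, miR-202-3p, miR-135a-2-3p, miR-204-5p, miR-212-5p and miR-383-5p were under 10 RPM in every EV library. They entered the comparison through ovary alone, so that the count is in part set by the filter. The 2 without a call were miR-132-3p, at 18.5 to 71.6 RPM in EVs and 53.1 to 132.2 RPM in ovary, and miR-224-5p, at 84.9 to 194.4 and 85.0 to 99.7 RPM. After median-of-ratios scaling miR-132-3p was called higher in ovary as well.

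miR-204-5p, made from an intron of Trpm3, stood at 211.5, 319.4 and 193.9 RPM in ovary and at 4.28, 4.17 and 7.44 RPM in EVs (-4.01, SE 0.28, limma adjusted p = 2.38e-05). miR-34c-5p, of the p53-responsive miR-34 family that is also abundant in ciliated epithelium such as that of the oviduct, stood at 976, 1075 and 932 RPM in ovary and 14.3, 15.3 and 53.0 RPM in EVs (-4.89, SE 0.39). Of the 6 tested miRNAs of the miR-34 and miR-449 families, 4 were higher in ovary, against 23.1% of all 390. Among them miR-34b-3p, miR-34b-5p and miR-34c-3p were under 10 RPM in every EV library. They entered the comparison through ovary alone, so that this count too is in part set by the filter. miR-449a-5p was not called, at 4.17 to 14.9 RPM in EVs and 13.5 to 15.9 RPM in ovary. miR-34a-5p, which is widely expressed, was called higher in EVs: it was at 62.6 to 67.0 RPM in EVs and 13.1 to 33.2 RPM in ovary (1.23, SE 0.29, limma adjusted p = 0.00583), but was not called after median-of-ratios scaling (0.77) or without ovary library 2.

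Epithelial, smooth muscle and mesenchymal miRNAs were higher in ovary as well. All 4 arms of miR-143 and miR-145a were, with a median of -3.42, and miR-145a-3p was the third largest difference of that direction, at 4177, 4090 and 5147 RPM in ovary and 184, 39.0 and 161 RPM in EVs (-5.25, SE 0.50). Of the 10 epithelial miRNAs tested, the 7 of the miR-200 family (miR-200a, miR-200b, miR-200c, miR-141 and miR-429), which hold ZEB1 and ZEB2 low, were all higher in ovary, and miR-203-3p, miR-205-5p and miR-375-3p were not called. miR-200c-3p stood at 2597, 2683 and 1964 RPM in ovary and 137, 91.8 and 583 RPM in EVs (-3.54, SE 0.60). miR-200b-3p was at 9342 and 9922 RPM in ovary libraries 1 and 2 but 2979 RPM in library 3, which was still above the EV libraries at 1055 to 1965 RPM.

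Among mesenchymal miRNAs, 5 of 6 tested were higher in ovary (median -2.46), led by miR-214-3p at 475, 492 and 640.3 RPM against 47.0, 2.78 and 39.1 RPM in EVs (-4.04, SE 0.55). miR-199a-3p and miR-199b-3p have the same mature sequence, so their separate values are uncertain: they were listed at 6899, 5939 and 8015 RPM and at 6956, 5982 and 8049 RPM in ovary, and were 1.18 and 1.17 lower in EVs. miR-199b-3p missed the threshold by size without EV library 3 (-0.997). miR-199b-5p, from the other arm, was the member without a call: its difference of 0.95 (SE 0.35) lay toward EVs and was called there without EV library 3 (1.18) or ovary library 3 (1.24) and in RPM without red blood cell miRNAs (1.02).

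**Figure D3:**
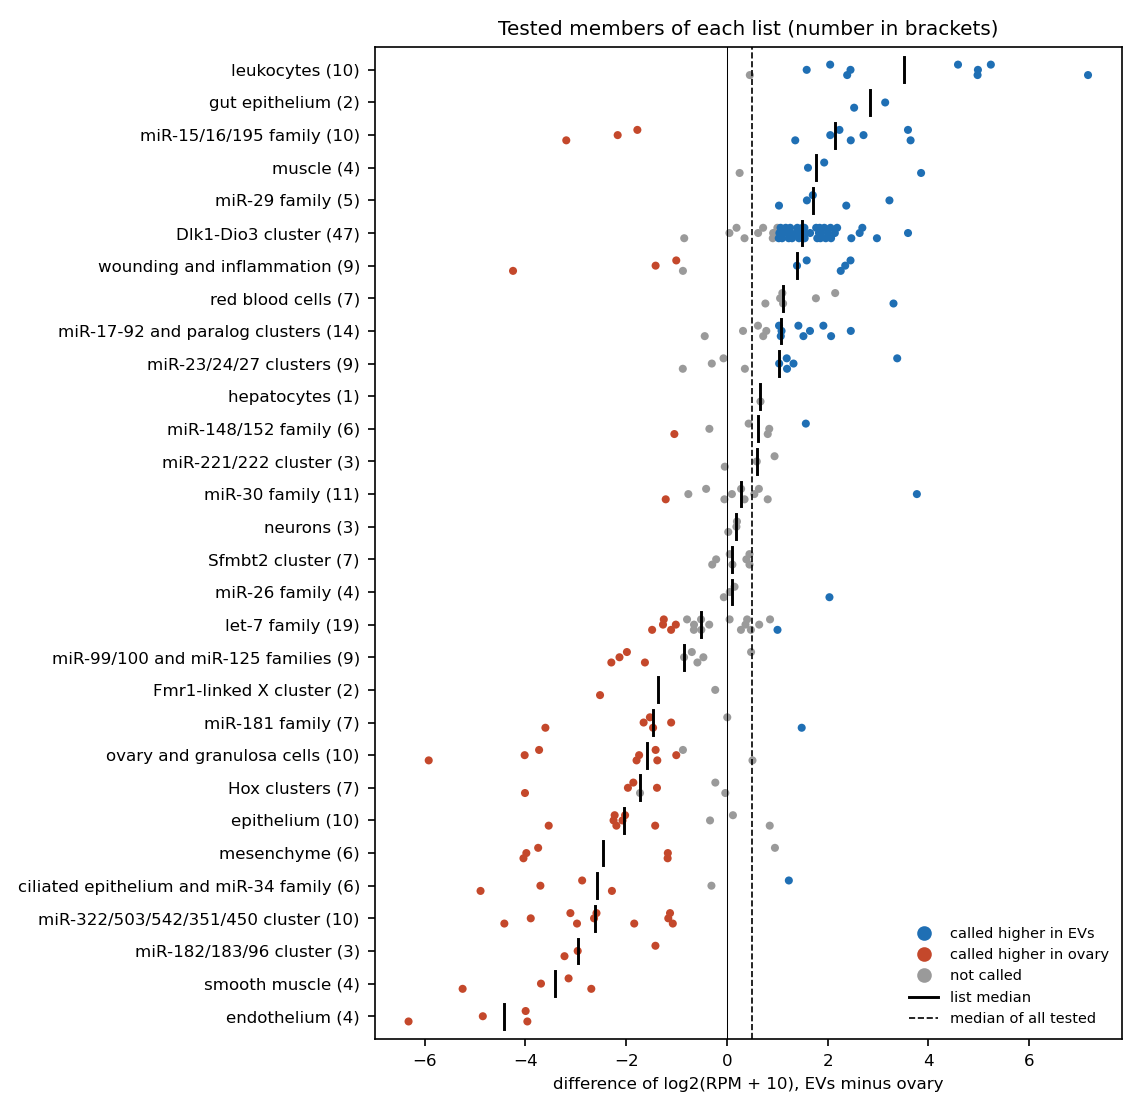
Each row is 1 of 30 lists of cell type, cluster, family or process, with its number of tested miRNAs. Points are miRNAs at their difference of log2(RPM + 10), EVs minus ovary, coloured by call, black ticks are list medians and the dashed line is the median of all 390 (0.50). Leukocytes have the highest median (3.52) and endothelium, with 4 miRNAs of 1 locus, the lowest (-4.42).

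Clusters and families of miRNA genes were then counted. A member under 10 RPM in every library of 1 group could enter only through the other group. The counts may therefore be in part set by the filter, and the number of such members is not given for these lists. Over all 390 tested, 35.9% were higher in EVs and 23.1% higher in ovary, and 23.1% and 28.2% after median-of-ratios scaling. The imprinted Dlk1-Dio3 cluster, maternally expressed and active in stem and stromal cells, had 47 of its 101 listed miRNAs tested, 45 of which have positions between chr12:109572004-109743784. Of the 47, 38 were higher in EVs and none higher in ovary, with 46 above 0 and a median of 1.501. Members that are low in ovary could enter through EVs alone, so that the filter may set part of this count. After median-of-ratios scaling 25 were higher in EVs and 1, miR-543-3p, higher in ovary, and without EV library 3 the EV count was 41. miR-127-3p stood at 8714, 6987 and 3648 RPM in EVs and 1807, 1947 and 2015 RPM in ovary (1.65, SE 0.32, limma adjusted p = 0.00227), with 0.92 and no call after TMM scaling. miR-379-5p stood at 4459, 4028 and 2972 RPM in EVs and 906, 1082 and 954 RPM in ovary (1.93, SE 0.23), and miR-136-3p was 3.60 higher (SE 0.29, limma adjusted p = 3.98e-05). Here too EV library 3 was the lowest EV library. The summed level of the cluster was 26629, 21849 and 13922 RPM in EVs and 5422 to 6307 RPM in ovary.

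The cluster of miR-322, miR-503, miR-542, miR-351 and miR-450 on chromosome X, whose members slow the cell cycle in differentiating cells, was the reverse. All 10 tested of 13 in the table were higher in ovary, also after median-of-ratios scaling and without EV library 3, with a median of -2.61. miR-351-5p stood at 797, 887 and 928 RPM in ovary and 44.2, 20.9 and 31.6 RPM in EVs (-4.42, SE 0.28, limma adjusted p = 2.09e-05). The lowest ovary library of the summed cluster was at 2379 RPM and the highest EV library at 242 RPM. The miR-182, miR-183 and miR-96 cluster on chromosome 6, known from sensory cells and carcinomas, was higher in ovary for all 3 members tested (median -2.96), with miR-182-5p at 545, 514 and 544 RPM in ovary and 31.4 to 88.4 RPM in EVs. The Sfmbt2 cluster, 73 miRNAs of which 7 were tested, had no call and a median of 0.11.

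Of 7 Hox cluster miRNAs tested, 4 were higher in ovary and none in EVs (median -1.72). miR-196b-5p stood at 3028, 3076 and 4781 RPM in ovary and 219.5, 87.7 and 472 RPM in EVs (-4.01, SE 0.54, limma adjusted p = 0.000424), while miR-10a-5p of the HoxB cluster was at 21922 to 28608 RPM in EVs and 28166 to 31355 RPM in ovary. Of 19 let-7 family miRNAs tested, 1 (miR-98-3p) was higher in EVs and 5 higher in ovary, and 0 and 8 after median-of-ratios scaling. Over all 390 the shares were 35.9% and 23.1%, and 23.1% and 28.2% after that scaling. The let-7 share toward ovary in RPM was near that of all tested. In the miR-17-92 cluster and its paralogs, 9 of 14 tested were higher in EVs and 4 after median-of-ratios scaling. miR-25-3p of that list was at 3171, 3948 and 7864 RPM in EVs and 1956 to 2469 RPM in ovary, and its difference of 1.09 (SE 0.34) was 0.70 without EV library 3 and 0.49 after median-of-ratios scaling, and was not called in either. That call was also lost without ovary library 1 or 2.

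The miR-29 and miR-181 families differed in this. All 5 miR-29 miRNAs tested were higher in EVs, and 3 after median-of-ratios scaling, with miR-29b-3p, which restrains collagen production, at 1323, 1348 and 482 RPM in EVs and 86.9, 90.6 and 101 RPM in ovary (3.23, SE 0.41, limma adjusted p = 0.000317). miR-29a-3p, the most abundant of them, was 1.59 higher (SE 0.22) and not called after median-of-ratios scaling (0.99), and neither was its other arm miR-29a-5p (0.79). Of 7 miR-181 miRNAs, 5 were higher in ovary and 1 in EVs. miR-181d-5p was at 753 to 816 RPM in ovary and 29.2 to 150 RPM in EVs (-3.60, SE 0.51), whereas miR-181a-5p, with the same seed, was at 2474 to 4851 RPM in EVs and 3735 to 3942 RPM in ovary (0.01, SE 0.28, and -0.59 after median-of-ratios scaling).

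Of the further families on the list, miR-99, miR-100 and miR-125 had 4 of 9 tested higher in ovary and 8 after median-of-ratios scaling, among them miR-125b-5p (-1.63, SE 0.18) and miR-100-5p (-2.29, SE 0.25). Over all 390, 23.1% were higher in ovary and 28.2% after that scaling, and 35.9% and 23.1% higher in EVs. The clusters of miR-23, miR-24 and miR-27 had 5 of 9 higher in EVs. After that scaling 1 was higher in EVs and 1, miR-27b-5p, higher in ovary. The 1 in EVs was miR-23a-3p, named here for that reason, at 9958, 11084 and 7753 RPM in EVs and 818 to 961 RPM in ovary (3.38, SE 0.21). The miR-30 family had 1 of 11 on each side. The 1 in EVs, miR-30b-5p, stood at 4243, 4609 and 3554 RPM in EVs and 256, 248 and 392 RPM in ovary (3.77, SE 0.25, limma adjusted p = 2.16e-05), while miR-30d-5p, miR-30a-5p and miR-30c-5p differed by 0.35, 0.55 and 0.10 and were not called, and after median-of-ratios scaling lay at -0.25, -0.05 and -0.50. The miR-148 and miR-152 family had 1 call on each side, and the miR-221 and miR-222 cluster had none. In that cluster miR-221-3p was 0.95 higher in EVs (SE 0.24), a value that passed 1 without EV library 3 (1.10) or ovary library 3 (1.09).

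The 6 miRNAs printed above with the seed AGCAGCA split by locus. miR-16-5p, a general brake on the cell cycle, stood at 6324, 7658 and 7276 RPM in EVs and 537, 534 and 664 RPM in ovary (3.59, SE 0.20, limma adjusted p = 1.92e-05). miR-15a-5p was 3.65 higher in EVs (SE 0.29) and miR-15b-5p 2.71 higher (SE 0.47), and the miRNAs from the other arms of miR-15a, miR-15b and both miR-16 copies were also called higher in EVs. miR-195a-5p went the other way, with 823, 799 and 660.1 RPM in ovary and 129.7, 117 and 271 RPM in EVs (-2.17, SE 0.34, limma adjusted p = 0.000812). Its neighbour miR-497a-5p (-1.78, SE 0.41) and miR-322-5p (-1.84, SE 0.27), chosen here because they share the seed, were higher in ovary too. All 6 kept their call in the 17 alternatives, and in each of the 6 the EV and ovary libraries did not overlap. Both were common: of the 69 named miRNAs with a call, 56 kept it in every alternative run. Over all 390, the EV libraries lay wholly above the ovary libraries for 44.9% and wholly below for 28.7%.

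**Figure D4:**
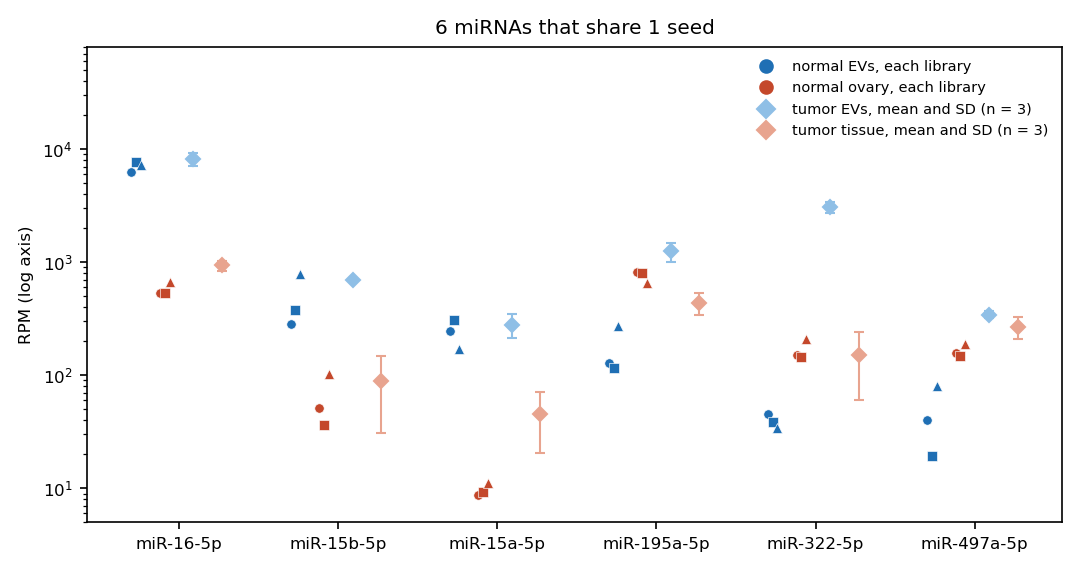
RPM on a log axis of the 6 miRNAs that share a seed: points are single libraries of normal EVs and normal ovary, diamonds with bars the mean and SD of 3 libraries of EVs and tumors of tumor-bearing mice. In normal mice the first 3 lie higher in EVs and the last 3 higher in ovary. In tumor-bearing mice miR-322-5p lies higher in EVs.

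Seeds were compared among the 340 tested miRNAs whose sequence was used. Of those that at least 2 miRNAs share, 43 in number with 114 miRNAs, 11 had 2 or more members called higher in EVs and none higher in ovary. For 8 it was the reverse, and 5 held calls on both sides. The seed AAAGUGC (miR-17-5p, miR-20a-5p, miR-93-5p and miR-106b-5p) had 4 of 4 higher in EVs and AGCACCA (miR-29a-3p, miR-29b-3p and miR-29c-3p) 3 of 3. The seeds AAUACUG (miR-200b-3p, miR-200c-3p and miR-429-3p) and CCCUGAG (miR-125a-5p, miR-125b-5p and miR-351-5p) had 3 of 3 higher in ovary. After median-of-ratios scaling the median of the 4 members of AAAGUGC was 1.00.

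By sign, the arms of a hairpin went together more often than not. Of 106 hairpins with both arms tested, 27 had both arms higher in EVs, 21 both higher in ovary, and none had arms called in opposite directions. After median-of-ratios scaling 16 had both arms higher in EVs and 26 both higher in ovary, and again none had opposite calls. In 34 hairpins only 1 arm was called, 21 toward EVs and 13 toward ovary, and 84 of the 106 had arms of the same sign. Among hairpins with 1 arm called, the widest gaps were those of miR-30b (3.77 for the 5p arm and 0.28 for the 3p arm) and miR-151 (2.87 and -0.38), looked up after the values were seen. The passenger arms of the 2 copies of miR-181a, which come from different loci, were called on different sides: miR-181a-1-3p was 1.49 higher in EVs (SE 0.34) and miR-181a-2-3p 1.65 higher in ovary (-1.65, SE 0.21). The call of miR-181a-1-3p was lost after TMM scaling (0.91).

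Sequence composition is given as a description. It covers only the miRNAs whose sequence was used. The median length was 22 bases for the calls of either side. The first base was U in 48.1% of 129 such EV calls, in 45.6% of 79 ovary calls and in 42.6% of all 340. The 4-base motif GGAG, tied to loading into EVs in lymphocytes, was found in 4.65% of EV calls, 7.59% of ovary calls and 8.24% of all. CCCU was found in 2.33%, 7.59% and 7.06%. Both motifs were searched on the mature strand only, and a match is a description, not a site.

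The EV over tissue difference of normal mice was then set against that of tumor-bearing mice (3 EV and 3 tumor libraries, 422 miRNAs tested over 12 libraries). It was larger in normal mice for 116 miRNAs (27.5%) and smaller for 58 (13.7%) by the interaction term in limma, together 41.2%, and for 84 and 80 after median-of-ratios scaling. The tissue was ovary in the former and tumor in the latter, so that a change in EVs and a change of tissue cannot be told apart from the difference alone. In tumor-bearing mice 82 of the 422 miRNAs (19.4%) were higher in EVs and 84 (19.9%) higher in tumor tissue. Of the 140 miRNAs higher in normal EVs than ovary, 47 were among those 82, and of the 90 higher in ovary, 41 were among those 84. All 10 leukocyte miRNAs had a larger difference in normal mice (9 after median-of-ratios scaling), with miR-223-3p at 7.17 in normal and 2.36 in tumor-bearing mice. The summed leukocyte level of tumor EVs was 5446 to 6028 RPM, below each normal EV library.

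In the Dlk1-Dio3 cluster, 43 of 47 had a larger difference in normal mice and none a smaller one (40 and none after median-of-ratios scaling). miR-127-3p was 1.65 higher in EVs in normal mice and -2.06 in tumor-bearing mice, with 296 ± 56.8 RPM in tumor EVs and 1248 ± 98.6 RPM in tumor tissue (SD, n = 3 each). In the miR-322 cluster the difference was smaller in normal mice for all 10 members under both scalings. miR-322-3p was -3.89 in normal mice, where ovary was higher, and 2.22 in tumor-bearing mice, with 2190 ± 326 RPM in tumor EVs against 490.2 ± 226 RPM in tumor tissue (SD, n = 3 each). It was smaller in normal mice for all 3 members of the miR-182 cluster as well, under both scalings. Endothelial miRNAs were lower in EVs in both, with medians of -4.42 and -4.56, and 1 of 4, miR-126a-3p, differed between them (none after median-of-ratios scaling).

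**Figure D5:**
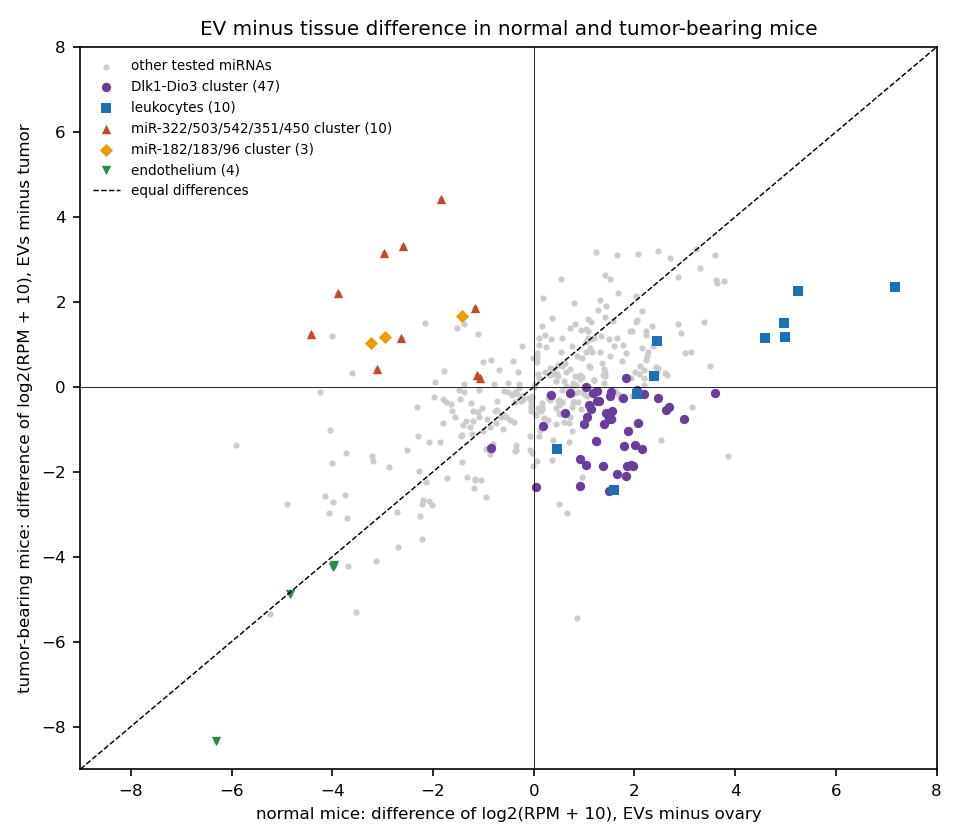
Each point is 1 of the 390 miRNAs, with the EV minus ovary difference of log2(RPM + 10) in normal mice on the x axis and the EV minus tumor difference in tumor-bearing mice on the y axis. Some lists are coloured and the dashed line marks equal differences. The 10 leukocyte miRNAs lie below that line, and the 10 of the miR-322 cluster and 3 of the miR-182 cluster lie above it.

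The pelvis was also sampled with 5 EV sheets on day 0 of another experiment, in which ID8-T6 cells were placed into the left ovarian bursa of mice of the same strain and sex. These sheets were not used in the comparison, and their levels are given as a description. miR-223-3p stood at 3528 to 13108 RPM on them, miR-16-5p at 3507 to 8587 RPM and miR-126a-3p at 367 to 1638 RPM. For these 3 miRNAs all day 0 sheets lay on the side of the normal EV libraries, away from the ovary libraries. The leukocyte sum was 29608 to 46821 RPM, the Dlk1-Dio3 sum 9723 to 29251 RPM and the miR-322 cluster sum 162 to 806 RPM. miR-202-5p was at 0.753 to 2.97 RPM there. miR-451a spanned 562 to 45679 RPM, so that red blood cell miRNAs varied from sheet to sheet on day 0 as well.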

How the data were processed

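Mouse miRNAs were measured by small RNA sequencing in 3 libraries of peritoneal EVs and 3 of ovary from normal mice. The authors used CLC Genomics Workbench 9.5.3 to trim adapters and match reads to the miRNAs of miRBase 22, allowing 2 mismatches at most, and deposited RPM. All values gave whole reads within 0.001, which were used for edgeR and DESeq2.

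Groups were taken from the labels. miRNAs with 10 RPM in 3 of 6 libraries were tested by limma 3.58.1 with a mean trend (R 4.3.3) on log2(RPM + 10), two-sided, with Benjamini-Hochberg adjustment. This differs from the count test (DESeq2) that the authors used. Alternatives were pseudocounts of 1 and 50 RPM, no filter and one of 100 RPM, median-of-ratios and TMM scaling, RPM without red blood cell miRNAs, edgeR 4.0.16, DESeq2 1.42.0, all 12 libraries, a replicate block and leaving out each library. An exact permutation test of 3 against 3 cannot go below p = 0.1. Named were the 12 largest calls per direction with a mean of 100 RPM, the 10 most abundant per group and up to 3 per list. Calls whose EV and ovary libraries overlapped could not be among these 12. Others were named after their values were seen. miRNAs and lists were chosen with earlier results of these data known. The test was tried on simulated data.

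EV and ovary libraries share replicate numbers in the labels. After removal of group means, same-numbered libraries correlated at 0.2395, 0.1819 and 0.2547, and differently numbered ones at -0.2216 to 0.1109. The labels do not say that a number marks 1 mouse. These values cannot decide it, as 3 residuals around a group mean depend on each other. The main test therefore left the libraries unpaired, and only the replicate block paired them by number.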

Additional observations from a re-analysis of the deposited data

Results flagged for a closer look

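The difference between EVs and tissue was itself different in normal and tumor-bearing mice for 46 of the 98 named miRNAs (46.9%), by the interaction term in limma (adjusted p under 0.05, size over 1 on the log2 scale), against 41.2% of all 422 tested. The named miRNAs were chosen partly for large differences, and nothing is read from these shares. Values are the log2 difference of EVs over tissue in normal mice minus that in tumor-bearing mice. The part that the change of tissue from ovary to tumor had in them was not tested.

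It was larger in normal mice for miRNAs of leukocytes: 4.81 for miR-223-3p, 3.81 for miR-223-5p, 4.01 for miR-146a-5p, 3.48 for miR-142a-5p, 3.44 for miR-142a-3p and 2.98 for miR-150-5p. The Dlk1-Dio3 miRNAs stood at 3.77 for miR-379-5p, 3.74 for miR-136-3p, 3.72 for miR-434-5p and 3.71 for miR-127-3p. The muscle miR-206-3p had 5.48, the gut epithelial miR-192-5p 3.78 and miR-194-5p 3.62. Further values were 3.00 for miR-362-3p, 2.09 for let-7i-5p, 2.02 for miR-126a-3p, 1.81 for miR-26a-2-3p, 1.51 for miR-222-3p, 1.47 for miR-221-3p, 1.44 for miR-146b-5p, 1.01 for miR-199a-3p and 1.01 for miR-199b-3p. After median-of-ratios scaling the calls of miR-126a-3p, miR-146b-5p, miR-194-5p, miR-199a-3p, miR-199b-3p, miR-221-3p and miR-222-3p were lost.

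It was smaller in normal mice for members of the miR-322 cluster, with -6.11 for miR-322-3p, -5.67 for miR-351-5p and -3.79 for miR-450a-5p, and of the miR-182 cluster, with -4.24 for miR-183-5p, -4.13 for miR-182-5p and -3.08 for miR-96-5p. The Hox cluster miR-196b-5p had -5.21 and miR-10b-5p -2.09. miRNAs on the ovary list had -4.54 (miR-202-5p) and -2.22 (miR-204-5p). Members of the miR-181 family had -3.93 (miR-181d-5p) and -1.18 (miR-181b-5p), and the miR-34 family -2.12 (miR-34c-5p) and -1.95 (miR-34a-5p). The other values were -4.13 for miR-31-5p, -3.66 for miR-195a-5p, -3.01 for miR-214-3p, -2 for miR-30a-5p, -1.90 for miR-9-5p, -1.57 for miR-708-3p, -1.40 for let-7c-5p, -1.26 for miR-27b-3p, -1.21 for miR-93-5p and -1.15 for miR-100-5p.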

How the results depend on the processing

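The count of miRNAs higher in EVs (140) was 90 after median-of-ratios scaling, 81 after TMM scaling, 89 with a pseudocount of 50 RPM and 72 with a filter of 100 RPM, which left fewer miRNAs to test; the ovary count (90) was then 110, 116, 62 and 61. The other alternatives gave 104 to 149 and 87 to 119, and leaving out 1 library gave 125 to 151 and 85 to 89. The interaction gave 142 to 201 calls without 1 library. Of 98 named miRNAs, 69 were called and 56 of these kept their call in every alternative run, with none reversed. With the replicate block, which pairs libraries by number, 91 were higher in ovary and 1 more than before in EVs. It changed 4 calls, none of a named miRNA: miR-1291 was lost and miR-144-5p, miR-376b-3p and miR-196a-5p were gained. miR-24-3p was not called without EV library 1 (0.94), EV library 2 (0.96) or ovary library 3 (0.97), and miR-27a-3p not without ovary library 3 (0.97). DESeq2 gave miR-451a no adjusted p. The cause of these shifts was not tested. EV libraries 1 and 2 held fewer reads than the others, so miRNAs of a few RPM rest on few reads.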

Other observations

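The miRNAs outside the comparison with the highest single values were those of EV library 3. miR-216a-5p stood at 1.43, 2.78 and 147 RPM in EVs and at 0.966, 0 and 0 RPM in ovary, and miR-216b-5p at 0, 0 and 149.8 RPM in EVs and 1.93, 0.934 and 0 RPM in ovary. With miR-217-5p they are typical of the acinar cells of the pancreas. miR-375-3p, of the endocrine pancreas and of gut epithelium, was highest in the same library, at 1203 RPM against 125 and 189 RPM in the other EV libraries and 127.4 to 212.03 RPM in ovary. These miRNAs were picked after their values were seen, and no test was run.

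A few called miRNAs had no reads in 1 group. miR-33-3p had 35 reads in EVs and 0 in ovary, at least 16.1-fold higher against a floor of 3 reads over the group, and miR-5124a had 75 reads in EVs and 0 in ovary, at least 36.4-fold higher.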
